A study of Mus musculus with 6 samples.

Results

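The mouse genes Sod1, Tardbp, Vcp, Optn, Tbk1, Sqstm1, Matr3 and Pfn1 were followed here because variants of their human counterparts cause or raise the risk of amyotrophic lateral sclerosis (ALS), the disease in which motor neurons are lost. They were picked out by gene name, and all 8 were found among the 19613 genes of the table. The 6 arrays all belonged to 1 group, cultures of embryoid bodies with motor neurons exposed to blood fluid from mice of strain B6CBA-Tg(HDexon1)62Gpb/3J, a Huntington's disease model whose transgene is the first exon of human huntingtin. The sample labels call the fluid plasma and the series title calls it serum, and "serum" is used below for either. The strain is that of the donors, which the study gives as male carriers bled before symptoms, and the cells came from HGB3, a mouse embryonic stem cell line in which the promoter of Hb9 (Mnx1), a gene of motor neurons, drives green fluorescent protein. Neither the labels nor the methods give the cells an ALS or Huntington's disease allele. The titles number the arrays as replicates 2, 4, 5, 6, 7 and 8, and the labels do not say which donor, culture or batch of neurons each stands for. The study speaks of 6 serum samples from this model and ran its assays in batches of differentiated neurons, so the spread between arrays may hold differences between sera, between batches and technical error. All 6 arrays share the exposure to serum, which lasted a day. Control arrays were not analysed here, and the values give level and spread but no response to the serum.

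The products of these genes serve a few shared tasks in motor neurons. Sod1, the copper-zinc superoxide dismutase, removes superoxide. Tardbp encodes TDP-43, an RNA-binding protein that controls splicing and leaves the nucleus to form inclusions in most ALS, and Matr3 encodes matrin 3, an RNA-binding protein of the nuclear matrix. Vcp is the ATPase that pulls ubiquitin-tagged proteins out of complexes and membranes. Sqstm1 (p62) and Optn (optineurin) are receptors that hand tagged cargo to the autophagosome, and Tbk1 is a kinase that phosphorylates both receptors. Pfn1, profilin 1, delivers actin monomers to growing filaments.

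All 8 genes were above background in these cultures, where 65.2% of all genes were. Background was the 95th percentile of the mean log2 intensity of 1032 olfactory receptor genes, a log2 value of 7.47. Median log2 intensity was 10.95 over the 8 genes and 9.09 over the 12793 genes above background. Intensities are means over the exons of a gene, and probes differ in affinity, so the order below ranks array signal and not transcript amount. Embryoid bodies hold other cells beside motor neurons, so fewer cells of a type and less RNA per cell cannot be told apart.

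Sod1 and Pfn1 had the highest intensities of the 8 genes. Sod1 had log2 intensities of 12.29, 12.41, 12.18, 12.27, 12.38 and 12.25 in replicates 2, 4, 5, 6, 7 and 8, and its mean of 12.30 ± 0.084 (SD, n = 6) lay above 99.2% of all genes. Replicates 4 and 7 were highest and replicate 5 was lowest. Pfn1 had 12.18, 12.14, 12.25, 12.22, 12.30 and 12.38 in the same arrays, with a mean of 12.24 ± 0.086 (log2 intensity, SD, n = 6). Its highest value was in replicate 8 and its lowest in replicate 4, where Sod1 was highest. The ranges of Sod1 and Pfn1 overlapped, and Sod1 was the higher of the pair in 4 of 6 arrays.

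Sqstm1, the p62 autophagy receptor, had log2 intensities of 11.13, 11.18, 11.14, 11.15, 11.09 and 10.97 in replicates 2, 4, 5, 6, 7 and 8. The first 4 values lay close together and replicate 8 was below all others, for a mean of 11.11 ± 0.076 (SD, n = 6). Matr3 had 11.09, 10.99, 11.06, 11.09, 11.10 and 11.18 (log2 intensity), with a mean of 11.09 ± 0.063 (SD, n = 6). Replicate 8 was the highest and replicate 4 the lowest for Matr3, the reverse of Sqstm1. Sqstm1 was above Matr3 in 4 of 6 arrays, so this pair too did not differ beyond its spread. Vcp, the segregase, had 10.74, 10.80, 10.79, 10.87, 10.87 and 10.79, with a mean of 10.81 ± 0.050 (log2 intensity, SD, n = 6). Vcp was lowest in replicate 2 and highest in replicates 6 and 7.

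The other 3 genes had lower intensities. Tardbp had log2 values of 9.32, 9.37, 9.21, 9.28, 9.31 and 9.39 in replicates 2, 4, 5, 6, 7 and 8 and a mean of 9.31 ± 0.063 (SD, n = 6), above 71.9% of all genes. It was lowest in replicate 5 and highest in replicate 8. Tbk1 had 8.54, 8.55, 8.53, 8.45, 8.49 and 8.63, with a mean of 8.53 ± 0.062 (log2 intensity, SD, n = 6), and replicate 8 was again highest. Optn had 8.39, 8.37, 8.35, 8.33, 8.36 and 8.39 and a mean of 8.37 ± 0.024 (log2 intensity, SD, n = 6), with no array apart from the rest. The kinase Tbk1 and its substrate Optn were thus the dimmest of the 8, at 1.06 and 0.90 above background on the log2 scale. Of the 7 neighbouring pairs in the order of levels, 5 had ranges over the arrays that did not overlap, and the exceptions were Sod1 with Pfn1 and Sqstm1 with Matr3.

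**Figure D1:**
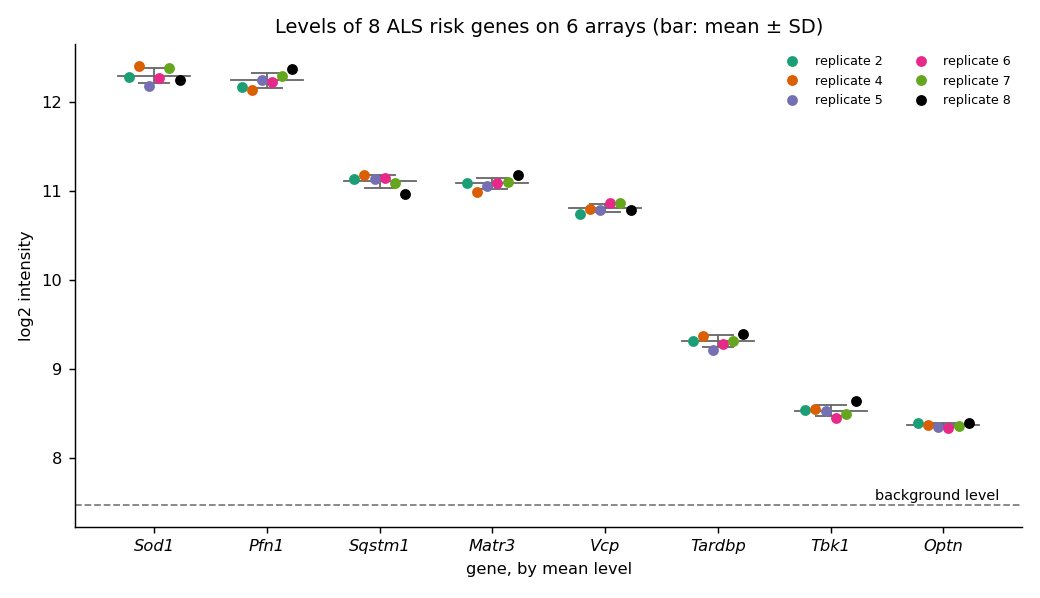
Log2 intensity of the 8 ALS risk genes on the 6 arrays, ordered by mean. Points are arrays coloured by replicate, horizontal lines are means with SD bars, and the dashed line is the background level of 7.47; Optn, lowest at 8.37, also had the tightest points.

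To read these SDs, each gene was set beside the 500 genes above background with the nearest mean level, since spread on arrays falls with level. The SD of Optn was smaller than that of 496 of its 500 neighbours, whose median SD was 0.088 against 0.024 for Optn. Its highest array exceeded its lowest by 1.04-fold only. Under median centring of the arrays the SD of Optn was 0.045, at the 8.8th percentile of its neighbours, against the 0.8th as deposited. At the other end, Pfn1 lay at the 81.0th percentile and Sod1 at the 79.0th, with SDs 1.55 and 1.51 times the median of 0.055 among the genes of like level. Few genes lie above these levels, so their 500 neighbours reached from 11.54 to 14.93 (mean log2 intensity).

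Sqstm1 lay at the 73.0th percentile, Matr3 at the 58.8th, Vcp at the 42.2nd, Tardbp at the 39.0th and Tbk1 at the 30.2nd. Tbk1 was at the 16.8th without replicate 8 and at the 17th without replicate 6. The place of Sqstm1 rested on replicate 8. Without that array its SD fell from 0.076 to 0.033 and its percentile was 23.6, and Pfn1 moved to the 62.8th. With median centring Sqstm1 was at the 41.2nd percentile. As a set, 4 of the 8 genes had an SD above the median of their neighbours and 4 had one below it, and the median percentile was 50.5 (41.4 without replicate 8). The median SD was 0.063 over the 8 genes and 0.076 over all genes above background, 31.2% of which had an SD over 0.1, a size that 0 of the 8 genes reached. With median centring Pfn1 passed it, at 0.101, as 35.2% of genes above background then did. The 8 genes had a higher median level than genes above background, so shares over all of these are not matched for level. An SD under 0.05 was found in 21.9% of genes above background and, of the 8, in Optn alone. Without replicate 8 this count was 4 of 8 (Optn, Tbk1, Sqstm1 and Matr3), against 30.9% of genes above background. In 7 of the other settings it was 2, Optn with Vcp, Matr3 or Tardbp. The share of genes above background in those settings ran from 14.3% (median centring) to 26.5% (without replicate 5). On the linear scale the coefficient of variation ran from 1.63% for Optn to 6.03% for Pfn1, and the highest array exceeded the lowest by at most 1.18-fold, in Pfn1.

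**Figure D2:**
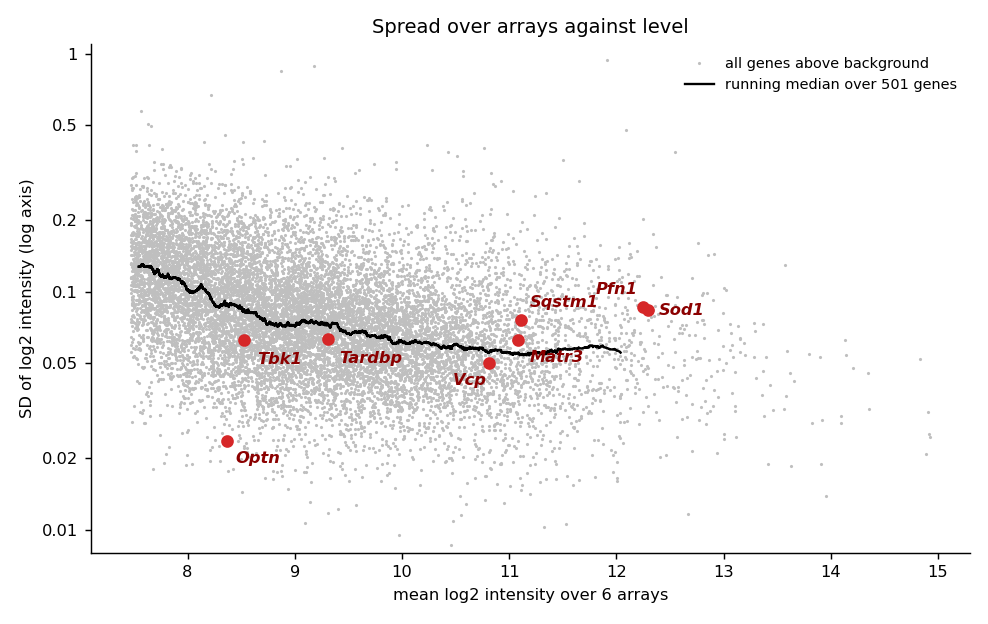
SD of log2 intensity over the 6 arrays (log axis) against mean log2 intensity for the 12793 genes above background (grey points), with a running median (black line) and the 8 ALS risk genes in red. Optn at an SD of 0.024 lies far below the line, whereas Sod1 and Pfn1, at 0.084 and 0.086, lie above it.

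The promoters of the genes at both ends of this scale of spread, and of Sqstm1, are shown for reference. Each is the 250 bases before the start site in RefSeq on the assembly GRCm38.p6, with capitals at 4 motifs searched on both strands. These were the TATA box, written as TATAAA, and the element CCAAT. The GC box was written as GGGCGG. The antioxidant response element was written as TGACNNNGC. Overlapping matches run together in the capitals.
Optn, chr2:5064118-5064367, minus strand: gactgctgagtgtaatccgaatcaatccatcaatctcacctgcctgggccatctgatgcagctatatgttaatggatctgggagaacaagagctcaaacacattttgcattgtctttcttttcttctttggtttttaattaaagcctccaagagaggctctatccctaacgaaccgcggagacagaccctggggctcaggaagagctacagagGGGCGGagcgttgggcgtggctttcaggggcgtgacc
Sod1, chr16:90220512-90220761, plus strand: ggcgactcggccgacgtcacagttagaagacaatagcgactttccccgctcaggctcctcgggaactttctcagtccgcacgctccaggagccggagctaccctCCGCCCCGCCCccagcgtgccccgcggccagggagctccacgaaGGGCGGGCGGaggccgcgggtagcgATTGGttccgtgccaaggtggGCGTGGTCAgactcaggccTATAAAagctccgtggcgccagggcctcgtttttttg
Pfn1, chr11:70654651-70654900, minus strand: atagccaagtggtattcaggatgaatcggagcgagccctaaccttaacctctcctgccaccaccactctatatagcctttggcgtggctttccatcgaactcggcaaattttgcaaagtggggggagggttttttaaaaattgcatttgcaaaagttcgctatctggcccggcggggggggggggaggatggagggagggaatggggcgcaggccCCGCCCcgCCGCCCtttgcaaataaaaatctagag
Sqstm1, chr11:50210821-50211070, minus strand: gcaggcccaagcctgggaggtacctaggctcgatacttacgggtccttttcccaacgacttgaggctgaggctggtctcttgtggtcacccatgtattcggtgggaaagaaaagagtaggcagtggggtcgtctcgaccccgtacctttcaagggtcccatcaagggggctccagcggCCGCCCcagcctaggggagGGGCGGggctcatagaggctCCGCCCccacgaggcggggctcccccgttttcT

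RefSeq promoters were matched for 7 of the 8 genes, and Matr3 was not used. Motif matches were counted in a window of 300 bases, from 250 before to 50 after the start. A GC box was found in 6 of 7 genes, in all but Vcp, and in 35.7% of the 32851 promoters of this length. Sod1 held a TATA box that began 37 bases before the start, and Vcp held one near the far end of the window. That of Sqstm1 began with the last base shown and ran across the start, and a TATA box was found in 13.6% of all promoters. Antioxidant response elements were found in Sod1 and Vcp, and in 12.4% of all promoters. The sequence TGATGNAAN, bound by ATF4 with its C/EBP partners, was found in 0 of 7 genes and in 3.95% of all promoters. The median GC content of the window was 62.0% over the 7 genes and 52.7% over all promoters. These matches are letters only, and no binding was measured.

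The next question was whether the 8 genes varied together over the arrays. Replicate 8 had the lowest mean Pearson's r with the other arrays over all genes, 0.992 against 0.994 to 0.995, and the lowest median intensity, 296 against 305 to 311. It was the highest array for 4 of the 8 genes, Tardbp, Tbk1, Matr3 and Pfn1. It was lowest for Sqstm1. Replicate 4 was highest for Sod1 and Sqstm1 and lowest for Matr3 and Pfn1. The share of all genes with their highest or lowest value in each array is not given here. These counts are therefore not read as a trait of the 8 genes. A single array stood apart by Dixon's test at the 95% level, which divides the distance between an end value and the next by the full range, in 0 of the 8 genes, where 6.97% of genes above background had such an array. Values without replicate 8 are given for the spread of the 8 genes and for the closest relations, and the cause of its difference was not tested.

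**Figure D3:**
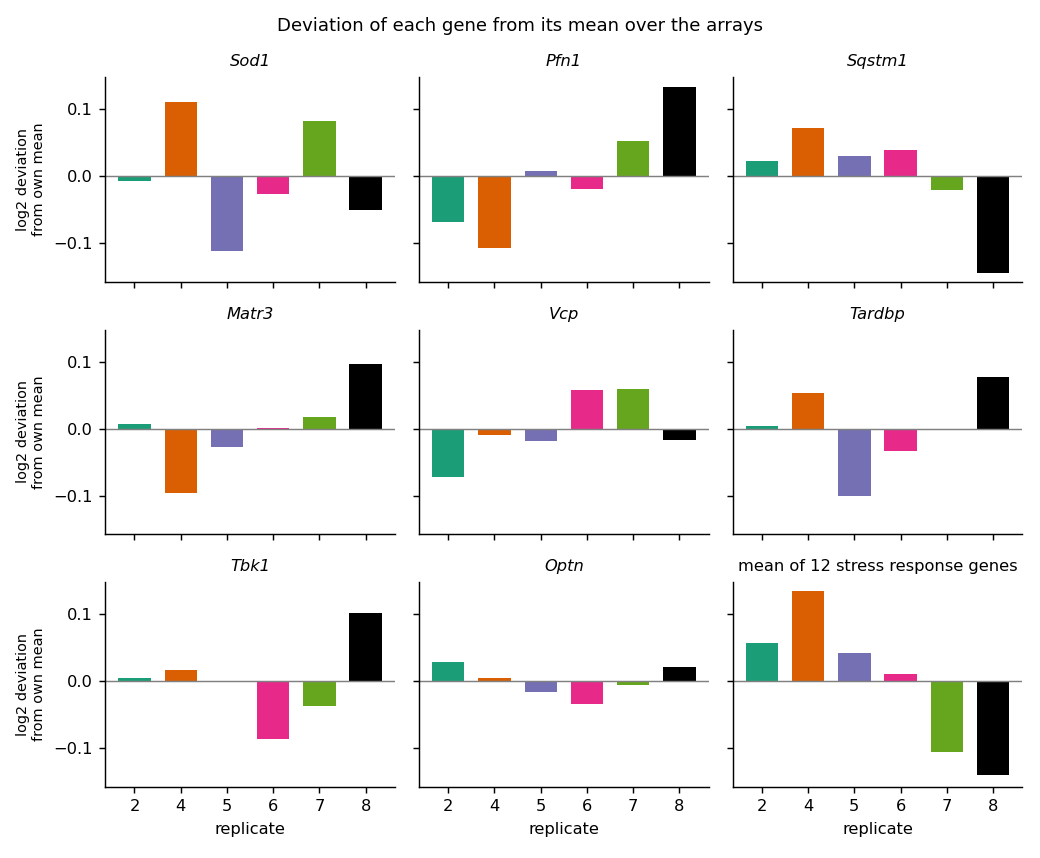
Deviation of each of the 8 genes from its own mean, in log2 units, by replicate, with the mean of 12 stress response genes in the last panel. Sqstm1 and the stress genes are low in replicate 8, whereas Pfn1 and Matr3 are high there and low in replicate 4.

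Among the 28 pairs of the 8 genes, Pearson's r ran between -0.91 and 0.87 over the 6 arrays (median 0.10). After Benjamini-Hochberg adjustment over the 28 pairs, 0 passed an exact two-sided permutation test for r and 0 for Spearman's rho. For rho the smallest exact p that 6 arrays allow is 0.00278, so 1 pair alone could not pass after this adjustment. For r, 3 pairs had an unadjusted p under 0.05. Sqstm1 and Pfn1 had an r of -0.91 (exact permutation p = 0.0069, adjusted p = 0.175) and a rho of -0.83 (exact p = 0.0583, adjusted p = 0.480). Sqstm1 and Matr3 had an r of -0.91 (exact p = 0.0125, adjusted p = 0.175) and a rho of -0.94 (exact p = 0.0167, adjusted p = 0.467). Matr3 and Pfn1 had an r of 0.87 (exact p = 0.0306, adjusted p = 0.285) and a rho of 0.77 (exact p = 0.103, adjusted p = 0.480). Leaving out the 2 arrays in which the first gene was farthest from its median gave an r of -0.64, -0.91 and 0.099 for these pairs, so the last rested on replicates 4 and 8. Without replicate 8 alone, r was -0.84, -0.83 and 0.69. Under median centring, Sqstm1 and Pfn1 had an r of -0.98 (adjusted exact permutation p = 0.0389). That is the smallest adjusted p for r that 1 pair alone can reach with 6 arrays. The rho of Sqstm1 and Pfn1 was then -1, and 0 pairs passed for rho.

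The integrated stress response lowers protein synthesis and, through the factors Atf4 and Ddit3, switches on genes of amino acid supply. The 8 genes were set against the mean of 12 genes of the integrated stress response (Atf4, Ddit3, Asns, Trib3, Chac1, Sesn2, Psat1, Phgdh, Shmt2, Atf5, Ddit4 and Atf3). This mean was 11.10, 11.18, 11.08, 11.05, 10.94 and 10.90 in replicates 2, 4, 5, 6, 7 and 8 (log2 intensity). All 12 stress genes had an SD above the median of genes of like level, and 8 of them lay above the 90th percentile (Atf4, Ddit3, Asns, Chac1, Sesn2, Atf5, Ddit4 and Atf3), where 0 of the 8 ALS risk genes did. Levels of Olig2, Mnx1, Isl1 and Lhx3, by which the study adjusted its data for neuron batch, served as a second measure. Over these 16 relations, 0 passed an exact two-sided permutation test after adjustment, and 4 had an unadjusted p under 0.05 for r. The smallest adjusted p for r that 1 relation alone could reach was 0.0222.

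Of these relations the closest was that of Pfn1 to the stress mean, with an r of -0.95 (exact permutation p = 0.0069, adjusted p = 0.0667) and a rho of -0.94 (exact p = 0.0167, adjusted p = 0.267). Matr3 had an r of -0.89 (exact p = 0.0139, adjusted p = 0.0741) and a rho of -0.83 (exact p = 0.0583, adjusted p = 0.311). Sqstm1 ran the other way, with an r of 0.88 (exact p = 0.0083, adjusted p = 0.0667) and a rho of 0.77 (exact p = 0.103, adjusted p = 0.411). Without replicates 7 and 8, where the stress mean was farthest from its median, r was -0.84 for Pfn1, -0.89 for Matr3 and 0.77 for Sqstm1. Without replicate 8 alone it was -0.91, -0.80 and 0.93. Median centring gave -0.82, -0.71 and 0.88, with an adjusted exact p of 0.322 for Pfn1 and Sqstm1. The remaining 5 genes had r between -0.36 and 0.18 to the stress mean.

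**Figure D4:**
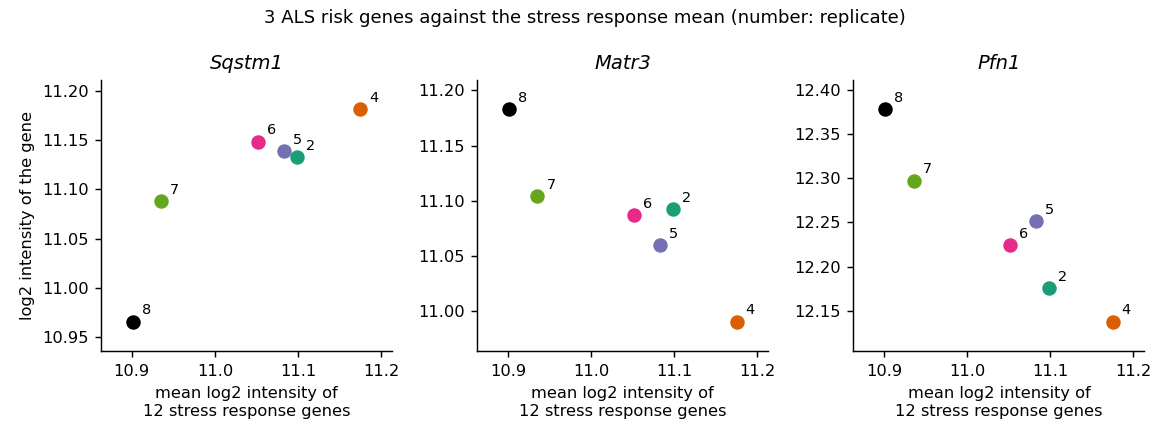
Log2 intensity of Sqstm1, Matr3 and Pfn1 against the mean log2 intensity of 12 stress response genes, each point an array marked by its replicate number. Sqstm1 increases from replicates 8 and 7 on the left to replicate 4 on the right (r = 0.88), and Matr3 and Pfn1 decrease (r = -0.89 and -0.95).

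Relations to the motor neuron genes were weaker. Sod1 had an r of -0.84 (exact permutation p = 0.0431, adjusted p = 0.172) and a rho of -0.83 (exact p = 0.0583, adjusted p = 0.311) to the 4-gene mean, and r was -0.49 without replicates 5 and 8, -0.82 without replicate 8 and -0.70 without replicate 5. The remaining 7 genes had r between -0.40 and 0.39. Each gene was also compared with all genes above background for the most similar pattern over the 6 arrays. The r of the 3 most similar genes of each of the 8 ran from 0.968 to 0.999. Over all genes the median r to the most similar gene was 0.994, and for 6 of the 8 the best r was below it, so these names describe the arrays alone.

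For Sqstm1 the most similar gene was Chchd10, which encodes a mitochondrial protein and is itself an ALS gene, at an r of 0.992, followed by Arhgap23 (0.985) and Snrpb (0.984). Pfn1 was most like Ucp2 (0.990), Hsp90b1 (0.990), a chaperone of the endoplasmic reticulum, and Amot (0.986). Matr3 was most like Fam123c (0.994), Fam78b (0.993) and Gm5468 (0.992), and Tbk1 was most like Wscd1 (0.999), Pbk (0.997) and Cpsf2 (0.992). For Vcp the names were Nek3 (0.990), Nktr (0.988) and Manf (0.980), a factor secreted on stress of the endoplasmic reticulum. Optn had Sh3pxd2a (0.991), Gm16386 (0.987) and Gab2 (0.987), Tardbp had Unc5d (0.993), Wdr33 (0.987) and Prpf18 (0.986), and Sod1 had Itpa (0.979), Mcart6 (0.976) and Eftud2 (0.968).

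Other ALS genes were taken from a list of 32, of which 31 were matched and all of these were above background. Their median SD percentile among genes of like level was 54.0, close to the 50.5 of the 8 genes. The RNA-binding group, with Tardbp and Matr3 as its counterparts here, had the highest levels, with a median log2 intensity of 11.01 over 8 genes, led by Hnrnpa1 at 12.17 ± 0.037 (SD, n = 6). Atxn2, a regulator of RNA in stress granules, had 11.46 ± 0.022 (log2 intensity, SD, n = 6) at the 3.6th percentile of spread. In the protein clearance group the median was 9.24 over 11 genes, led by the proteasome shuttle Ubqln2 at 11.09 ± 0.062 (log2 intensity, SD, n = 6).

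Genes of the cytoskeleton and transport had a median level of 8.99 and the widest spread of these groups, with 5 of 7 above the median SD of their neighbours. Prph, an intermediate filament of peripheral neurons, had 9.81 ± 0.12 (log2 intensity, SD, n = 6) at the 90.4th percentile, and the kinesin Kif5a had the highest level at 10.29 ± 0.093 (SD, n = 6). Of the remaining 5 genes, Chchd10 had 9.99 ± 0.15 (log2 intensity, SD, n = 6) at the 96.6th percentile and was lowest in replicate 8, at 9.72, and the glycosyltransferase Glt8d1 had the highest level at 10.05 ± 0.047 (SD, n = 6).

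**Figure D5:**
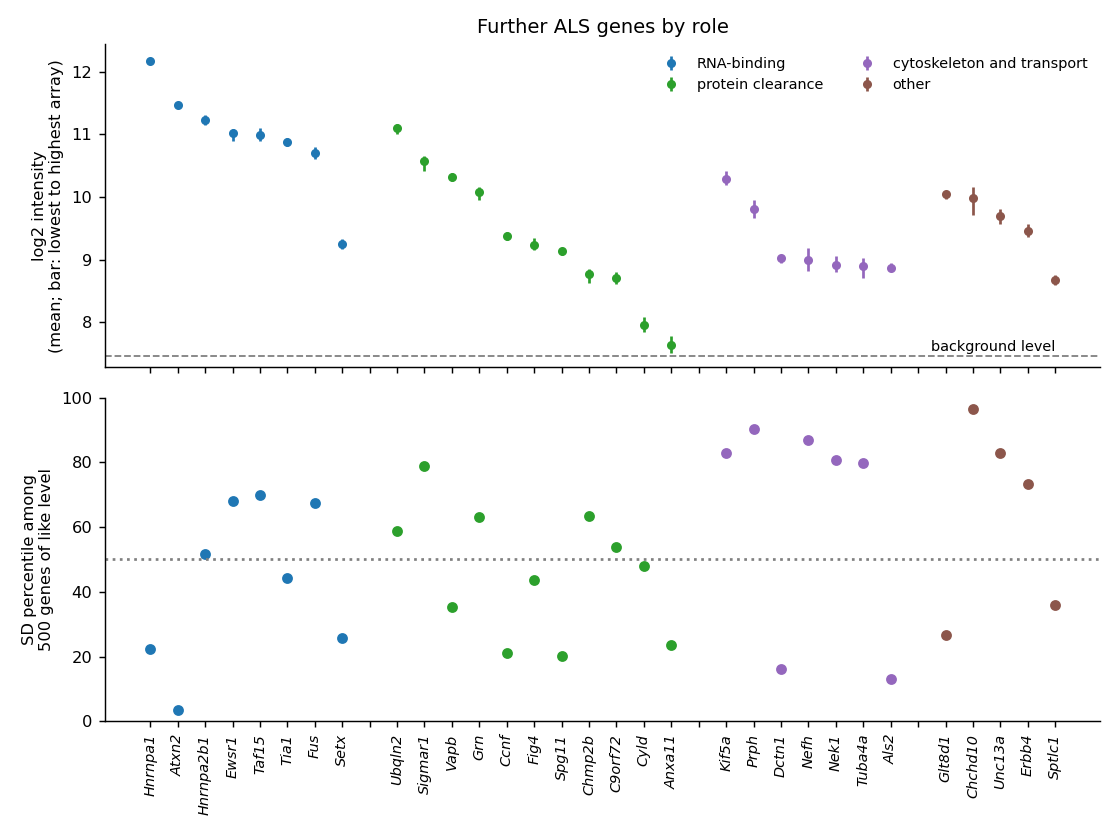
Upper panel, mean log2 intensity of 31 further ALS genes by role, with bars from the lowest to the highest of the 6 arrays and the background level dashed. Lower panel, percentile of the SD of each gene among 500 genes of like level (dotted line at 50): Chchd10 at 96.6 and Prph at 90.4 are widest and Atxn2 at 3.6 is narrowest.

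Partners of the 8 genes were read from fixed lists in the same way. Of the enzymes beside Sod1 that act on superoxide and peroxide, 8 of 9 were above background, with catalase (Cat) highest at 11.33 ± 0.097 (log2 intensity, SD, n = 6). The exception was the extracellular Sod3 at 6.55 ± 0.18. Of the autophagy genes around Optn, Sqstm1 and Tbk1, 18 of 19 matched were above background, led by Gabarap at 12.93 ± 0.021, and the exception was Ikbke, the kinase most related to Tbk1, at 6.95 ± 0.16 (log2 intensity, SD, n = 6). The cargo receptor Nbr1, which resembles p62, had 9.89 ± 0.031 at the 5.4th percentile of spread, and Gabarap and Atg7 (8.74 ± 0.029) lay at the 3.4th and the 2.6th. Nbr1, Gabarap and Atg7 therefore shared the narrow spread of Optn, while the median percentile of the autophagy list was 48.0.

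All 13 matched cofactors of Vcp were above background, with Ube4b highest at 11.24 ± 0.046 and Faf1 at the 5.8th percentile of spread (10.31 ± 0.031, log2 intensity, SD, n = 6). Their median percentile was 36.2. The 9 nuclear RNA-binding proteins that act beside Tardbp and Matr3 were all above background, led by Hnrnpk at 13.11 ± 0.046, and 0 of 9 had an SD above the median of its neighbours. Hnrnpm, at 10.68 ± 0.025 (log2 intensity, SD, n = 6), was at the 4.2nd percentile.

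The 17 actin genes set beside Pfn1 were all above background and held both extremes of spread. Cfl2, an actin-severing cofilin, had 11.53 ± 0.011 at the 0.2nd percentile, and the actins Actb (14.10 ± 0.028) and Actg1 (13.41 ± 0.019) lay at the 8.8th and the 2.0th (log2 intensity, SD, n = 6). The thymosins Tmsb10 and Tmsb4x, which bind actin monomers as Pfn1 does, had 9.84 ± 0.21 and 11.75 ± 0.13 at the 99th and the 94.0th percentile. Tmsb10 was highest in replicate 8, at 10.23, as Pfn1 was. Actins, thymosins and Hnrnpa1 belong to families with near-identical copies, and whether signal was shared among these is not stated, so their values are uncertain.

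The labelled cell type was checked on marker genes. Of the motor neuron markers 7 of 7 matched were above background, from Mnx1 at 8.48 ± 0.18 through Lhx3, Slc5a7, Isl2, Chat and Lhx4 to Isl1 at 10.33 ± 0.12 (log2 intensity, SD, n = 6). The choline transporter Slc5a7, at 8.99 ± 0.22, lay at the 98.2nd percentile of spread, and Mnx1 and Isl1 at the 91.4th and the 90.8th. The progenitor markers Olig2, Nkx6-1, Nkx6-2 and Neurog2 were above background, with Olig2 at the 91.2nd percentile of spread and Nkx6-2 at the 4.4th. Blood markers were above background in 0 of 3 (Hbb-b1, Ptprc and Alas2, at most 7.34). Microglial markers were above it in 1 of 4, with Csf1r at 7.74 and Aif1, Cx3cr1 and C1qa below. Pluripotency markers were above it in 1 of 4, with Nanog at 8.94 and Pou5f1, Zfp42 and Dppa5a below. Astrocyte markers were above it in 3 of 4 (Gfap, S100b and Aldh1l1, at most 7.81), with Aqp4 below. Mean motor neuron marker level ranged from 9.23 in replicate 4 to 9.46 in replicate 8 (log2 intensity). Pfn1 and Matr3 were also lowest in replicate 4 and highest in replicate 8, and Sqstm1 was the reverse. Of the markers averaged, only Isl1 and Slc5a7 were themselves lowest in replicate 4 and highest in replicate 8. The 4-gene mean used above was instead lowest in replicate 7, at 9.03, and highest in replicate 5, at 9.23 (log2 intensity). Its r was 0.39 to Pfn1, 0.19 to Matr3 and -0.25 to Sqstm1. The part of motor neuron marker level in the values of Pfn1, Matr3 and Sqstm1 was not tested.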

How the data were processed

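RNA from the exposed cultures was hybridised to 6 Affymetrix mouse exon arrays. The deposited table gives linear intensities by gene and array. Per the methods, the authors ran Robust Multi-array Averaging (RMA) in Aroma Affymetrix and averaged all exons of a gene. The submitters' processing notes name RMA and Affymetrix Expression Console. Per the methods, Expression Console was run on each batch of embryoid bodies to screen arrays for outliers, and whether these 6 had passed that screen is not stated. Which arrays RMA normalized with these 6 and the genome build are not given in the sources used here. The table held 0 columns of other samples, and median intensity per array ranged from 296 to 311. Precision is limited by the number of arrays.

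Values were put on the log2 scale without a pseudocount. A leading X was removed from 1065 names, and 155 names with a point were also read with a hyphen. Of the genes listed, 148 entries matched by symbol, 4 by RefSeq synonym and 5 (Ang, Atg5, Derl1, Slc18a3 and Hba-a1) were not matched. Levels are given as mean ± SD over arrays, and spread as a percentile among the 500 genes nearest in level. With 1 group there is no comparison between conditions. Relations were tested by exact permutation over all 720 pairings, two-sided, with Benjamini-Hochberg adjustment in each family (16 relations and 28 pairs). Named beside the 8 genes are, for each, the 3 genes of highest r, from each list of further genes those below background, those beyond the 10th or 90th percentile of spread and the highest in level, and the matched markers. Scripts used Python 3.11.15, numpy 2.4.6 and pandas 2.3.3, and were tested on simulated data. The genes and lists were chosen with earlier results of these data known. One list of markers is not reported here.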

Additional observations from a re-analysis of the deposited data

Results flagged for a closer look

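Of 62 genes and list means screened for 1 array far from the other 5, 4 were found, and 0 of these were among the 8 ALS risk genes. The nominal rate of the test, 1 in 20, would give about 3.1. On these arrays 6.97% of genes above background had such an array, so 4 of 62 is no excess over all genes. Each ratio below divides the distance between the end value and the next by the full range. Glt8d1, an ALS gene, was lowest in replicate 5, at 9.96 against 10.05 to 10.09 in the other arrays (log2 intensity, ratio 0.670). Catalase (Cat) was highest in replicate 8, at 11.52 against 11.24 to 11.34 (ratio 0.659). Atg7, an enzyme of autophagosome formation, was lowest in replicate 2, at 8.68 against 8.74 to 8.76 (ratio 0.661). Pou5f1, a pluripotency gene with a mean below background, was highest in replicate 5, at 7.63 against 7.26 to 7.39 (ratio 0.643).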

How the results depend on the processing

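The 8 genes stayed above background under each alternative run for that count (median centring, quantile normalization, the 99th percentile of olfactory receptor genes, a pseudocount of 16 and leaving out each array). The median of their levels moved between 10.94 and 10.96, and their median SD percentile between 41.4 and 62.8. Both stayed within the error over arrays. The error of the percentile, 16.3 points, was computed from the runs with 1 array left out, and that of the levels from the same arrays. For those runs, staying within the error therefore says little about stability. The count of 0 relations to the list means was the same in each setting tried. All genes of the stress and motor neuron lists were above background. The 99th percentile and the use of all matched list genes therefore left r unchanged and could not alter this count. Median centring and quantile normalization did change r, and the count stayed at 0. The count of pairs of genes that passed for r was 1 under median centring, that of Sqstm1 and Pfn1, and 0 in the other settings. With 1 array left out, the smallest adjusted p for r that 1 pair alone can reach is 0.233. For 1 relation it is 0.133, so the counts with 1 array left out say nothing about stability. Optn kept an SD percentile between 0.6 and 8.8, and its mean was 8.43 with a pseudocount of 16. Besides Sqstm1 and Pfn1 without replicate 8, single-array removals moved Vcp, Matr3 and Tardbp by more than the error of 16.3 points. Vcp came to the 24.6th (without replicate 2) and the 59.0th percentile (without replicate 8). Matr3 came to the 39.6th (without replicate 4) and Tardbp to the 20.2nd (without replicate 5). Shifts within that error included Tbk1 to the 16.8th (without replicate 8) and the 17th (without replicate 6), and Matr3 to the 44.8th (without replicate 8). Median centring moved Vcp to the 20th and Tbk1 to the 47.8th percentile. The cause was not tested. No paired analysis was possible because all 6 arrays belong to 1 group.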
